A study of Drosophila melanogaster with 2 samples.

Results

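The 6 genes described here, Chro, osa, RYBP, tara, HmgZ and HmgD, encode proteins of chromatin and were selected on the score of nearby peaks: each lay within 10 kb of 1 of the 21 highest binding peaks of Hr38 in the fly. They are 6 of 13968 protein-coding genes on the chromosome arms, and their scores and ranks are therefore given as a description, with no test. Binding was profiled by chromatin immunoprecipitation with sequencing, in which an antibody against GFP recovered DNA from flies of a transgenic line that stably expresses Hr38 with GFP at its C terminus (Hr38-eGFP). Both libraries come from this line, and the labels do not say which promoter drives the fusion or whether the flies also make untagged Hr38. Whole animals, both sexes pooled, were taken at the white prepupa stage, with an age of 48 h on the labels that is not tied to a starting event. There was 1 group of 2 biological replicates and no second group, so no conditions are compared. The control that the labels name was not analysed here.

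Hr38 is a nuclear receptor, the only one of the Nr4a type in flies. Receptors of this type can bind as monomers to a short response element, the NBRE. Chromatin proteins set how tightly DNA is packed and which genes can be read. Polycomb complexes keep genes silent, trithorax group proteins and SWI/SNF remodellers oppose them by modifying or moving nucleosomes, and small HMG-box proteins bend DNA and bind between nucleosomes. RYBP binds Polycomb complexes, osa is a signature subunit of the BAP form of the fly SWI/SNF complex, and tara (taranis) interacts genetically with both the Polycomb and the trithorax group. Chro (Chromator) is a chromodomain protein of interphase chromosomes and of the mitotic spindle. HmgZ and HmgD are neighbouring HMG-box genes whose proteins resemble each other.

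The authors deposited 1 list of 768 peaks that passed a threshold on the irreproducible discovery rate (IDR), which asks whether peaks rank alike in the replicates, and longer lists that hold background regions as well. The pooled list has 19279 regions, that of replicate 1 has 30000 and that of replicate 2 has 29031 on the arms. The 768 thresholded peaks were the 768 regions of highest score in the pooled list, and 756 had a region in both replicates. Not every peak was matched by overlap to regions of like rank. For that at rank 130, near cbt, the matched region ranked 95 in replicate 1 and 12717 in replicate 2. Its score there was 99.7 and 17.1, against 160.9 in the thresholded list. Whether taking the nearest summit passed over a stronger region of replicate 2 was not checked. Each region carries a score, which is the narrowPeak signal column, in units not stated in the sources used here. Scores ran from 78.0 to 629 in the thresholded list, from 28.2 in the pooled list, from 15.9 to 354 in replicate 1 and from 12.5 to 358 in replicate 2. A rank is the place of a region by score in its own list. The depth of the libraries is unknown, and the lists hold no expression values, so neither the stage nor the expression of the 6 genes could be checked.

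The sequences below show the intergenic peak before tara, the intronic peak of osa and the short gap between the start sites of Chro and its neighbour Ssl1. They come from the RefSeq release 6 assembly (dm6). The region of tara is 3R:16222393-16222597 on the plus strand, that of osa is 3R:17704298-17704507 on the minus strand, which is the sense strand of osa, and the gap is 3L:22878985-22879088 on the minus strand, read towards the start of Chro. Capitals mark the letters of the motifs GAGAG and GCCAT or of their reverse complements CTCTC and ATGGC.
tara: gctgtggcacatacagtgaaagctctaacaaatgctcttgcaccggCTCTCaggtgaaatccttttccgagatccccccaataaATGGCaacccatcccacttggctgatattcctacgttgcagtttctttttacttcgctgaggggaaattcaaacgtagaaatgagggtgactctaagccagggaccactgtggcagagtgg
osa: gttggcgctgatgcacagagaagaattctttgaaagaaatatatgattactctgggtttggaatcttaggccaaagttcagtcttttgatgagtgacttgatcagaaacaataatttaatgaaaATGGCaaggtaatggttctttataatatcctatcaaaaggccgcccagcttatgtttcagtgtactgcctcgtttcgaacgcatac
Chro to Ssl1: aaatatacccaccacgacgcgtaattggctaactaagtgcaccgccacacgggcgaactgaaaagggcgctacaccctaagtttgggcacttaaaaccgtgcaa
The tara region has a GC content of 48.8% and 1 match to each motif, and the osa region is 210 bp long with 38.1% GC and has 1 match to GCCAT. The gap of 104 bp has 51.0% GC and no match to any of the 10 motifs searched.

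Near the 6 genes lay 9 thresholded peaks, of which 5 were the highest peak of a gene, since HmgZ and HmgD share theirs. By score these 5 ranked 2 (RYBP), 6 (Chro), 18 (tara), 19 (osa) and 21 (HmgZ and HmgD) among the 768. A thresholded summit in the gene span or within 10 kb of it was found for 20.6% of all protein-coding genes, and 2 or more summits for 3.55%, against 5 of the 6 genes, all but Chro. A summit inside the gene span, found for 3.31% of all genes, was present in Chro, osa, HmgZ and HmgD and absent from RYBP and tara. Since the genes were chosen by these peaks, nothing is read from those counts.

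**Figure D1:**
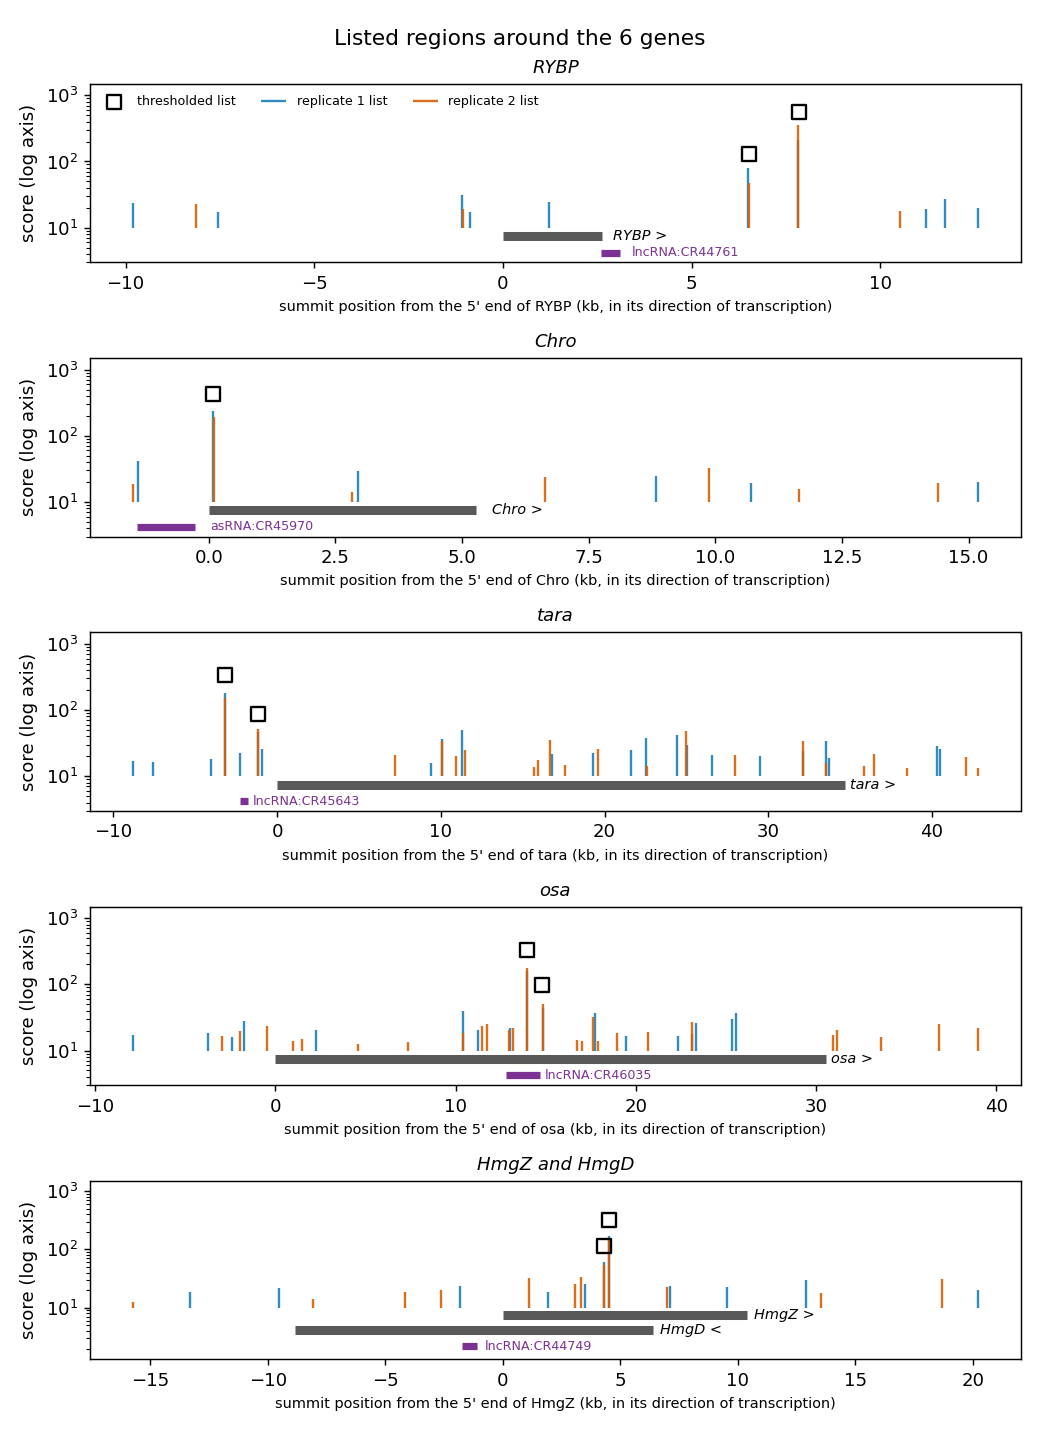
Regions of the thresholded list (squares) and of the replicate lists (blue and orange lines) around the genes, by distance of the summit from the 5' end in kb and by score on a log axis. Grey bars are the genes described here, with their direction, and purple bars are the noncoding genes nearest to the peaks. Other genes, such as Ssl1 beside Chro, are not drawn. The tall lines of both replicates coincide at each square.

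RYBP, the Polycomb partner, had the highest score of the set. The gene (FBgn0034763) covers 22670587 to 22673212 on the plus strand of 2R, a span of 2626 bp. Its highest peak, from 22678166 to 22678624 with the summit at 22678427, lay 5215 bp downstream of its 3′ end and 7662 bp from its nearest transcription start site (TSS). The score was 563.8 in the thresholded list, 212.8 in replicate 1 (rank 11) and 357.6 in replicate 2 (rank 1), a mean over replicates of 285 ± 102 (SD, n = 2). No gene covered the summit, which stood in a gap of 11742 bp between RYBP and Ppa, an F-box protein gene transcribed towards it, whose nearest end was 6528 bp away. The noncoding gene lncRNA:CR44761, at the 3' end of RYBP, was 4732 bp from the summit. With a width of 459 bp the region was the widest of the thresholded list.

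The weaker peak of RYBP stood in the same gap, 1321 bp nearer to the gene, from 22676916 to 22677295. Its score was 129.5 (rank 231), with 79.9 in replicate 1 (rank 162) and 47.1 in replicate 2 (rank 498), or 63.5 ± 23.2 (SD, n = 2). At the highest peak replicate 2 had the higher score, by 0.75 on the log2 scale, while at the weaker one it had the lower, by -0.76. Over the 756 thresholded peaks with a region in both replicates the median of this log2 ratio was -0.24, with 5% of peaks below -1.12 and 5% above 0.69. The highest peak of RYBP was thus outside that central range and the weaker one inside it. The gap holds RYBP and Ppa at its ends, and CG13516, CG30269 and CG30273 also lay within 10 kb of the highest summit, so these lists do not assign the peaks to 1 gene.

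Chro had its highest peak closest to a start site. The gene (FBgn0044324) covers 22873702 to 22878984 on the minus strand of 3L, 5283 bp with 3 annotated TSSs. The peak ran from 22878756 to 22879023, with the summit at 22878894 in the 5′ UTR, 90 bp past the TSS. Its score was 431.0 (rank 6), with 233.9 in replicate 1 (rank 7) and 193.2 in replicate 2 (rank 4), or 213.5 ± 28.8 (SD, n = 2). Ssl1, a gene for a subunit of the general transcription factor TFIIH, starts 195 bp from the summit in the opposite direction, across the 104 bp gap printed above, so the peak belongs by position to both promoters. Antisense gene asRNA:CR45970 lay 365 bp away. Arf1, slif, which encodes an amino acid transporter, and CG11109 were also within 10 kb. Chro had no further thresholded peak, and the next one on the arm was 56143 bp off.

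The highest peak of tara lay upstream of the gene. The gene (FBgn0040071) covers 16225651 to 16260329 on the plus strand of 3R, a span of 34679 bp. The peak ran from 16222393 to 16222597, its summit at 16222476 standing 3175 bp before the TSS in a gap of 20400 bp that ends at mtSSB, a gene for a mitochondrial single-strand DNA-binding protein, 17226 bp away and transcribed in the opposite direction. Its score was 337.2 (rank 18), with 182.6 in replicate 1 (rank 17) and 153.0 in replicate 2 (rank 21), or 167.8 ± 20.9 (SD, n = 2). The weaker peak, at 16224283 to 16224662, was 1178 bp before the TSS with a score of 87.5 (rank 584). It scored 46.5 in replicate 1 (rank 626) and 51.0 in replicate 2 (rank 394), or 48.8 ± 3.15 (SD, n = 2).

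Between both tara peaks lies the noncoding gene lncRNA:CR45643, from 16223395 to 16223854 on the plus strand. It starts 919 bp after the summit of the highest peak and ends 619 bp before that of the weaker one. No other protein-coding gene lay within 10 kb of either summit. The score of the weaker peak was 0.897 of the sum of its replicate scores, below the 0.939 that 95% of thresholded peaks exceed, and 2 regions of replicate 1 overlapped it. At the other peaks of the set this ratio lay between 0.988 and 1.04, where the median of thresholded peaks was 1.01. Among them was the highest HmgZ and HmgD peak, at 0.990, which 2 regions of each replicate also overlapped.

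Both peaks of osa stood deep inside the gene. The gene (FBgn0261885) covers 17687818 to 17718350 on the minus strand of 3R, 30533 bp with 1 TSS. The highest peak ran from 17704298 to 17704507, with its summit at 17704398 in an intron, 13952 bp from the TSS. Its score was 331.2 (rank 19), with 161.0 in replicate 1 (rank 22) and 173.9 in replicate 2 (rank 11), or 167.4 ± 9.14 (SD, n = 2). This summit lay in an exon of lncRNA:CR46035, a noncoding gene of 1887 bp on the opposite strand, 703 bp past its start. Of all 768 thresholded summits 5.34% lay inside a noncoding gene, and this was the only such summit among the 9.

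The weaker osa peak ran from 17703347 to 17703726, across the start of lncRNA:CR46035. Its summit stood 158 bp before that start, so that the summits of the pair flanked it 861 bp apart. Its score was 97.7 (rank 464), with 43.6 in replicate 1 (rank 729) and 50.0 in replicate 2 (rank 423), or 46.8 ± 4.54 (SD, n = 2). The protein-coding genes next to osa, CG31249 and the peroxidase gene Pxt, were 17327 and 15056 bp from the highest summit, beyond the 10 kb window.

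HmgZ and HmgD overlap on opposite strands of 2R and shared both of their peaks. HmgZ (FBgn0010228) covers 21697488 to 21707861 on the minus strand and HmgD (FBgn0004362) 21701458 to 21716727 on the plus strand, with 6404 bp in common. The highest peak ran from 21703247 to 21703475 and its summit, at 21703339, was in an intron of both genes, 509 bp before a TSS of HmgZ and 1881 bp past the outermost TSS of HmgD. Its score was 317.3 (rank 21), with 171.7 in replicate 1 (rank 19) and 148.9 in replicate 2 (rank 25), or 160.3 ± 16.1 (SD, n = 2).

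The weaker peak of the pair began inside the end of the highest one, from 21703472 to 21703569, with its summit 210 bp away. Its score was 114.9 (rank 312), with 61.0 in replicate 1 (rank 339) and 53.1 in replicate 2 (rank 353), or 57.1 ± 5.60 (SD, n = 2). These regions overlap, so the lists do not show whether they are 1 broad site or 2 sites. CngB, a cyclic nucleotide-gated channel gene, and CG30403 were the nearest other protein-coding genes, at 6187 and 6556 bp from the highest summit, and lncRNA:CR44749 was 5606 bp away.

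**Figure D2:**
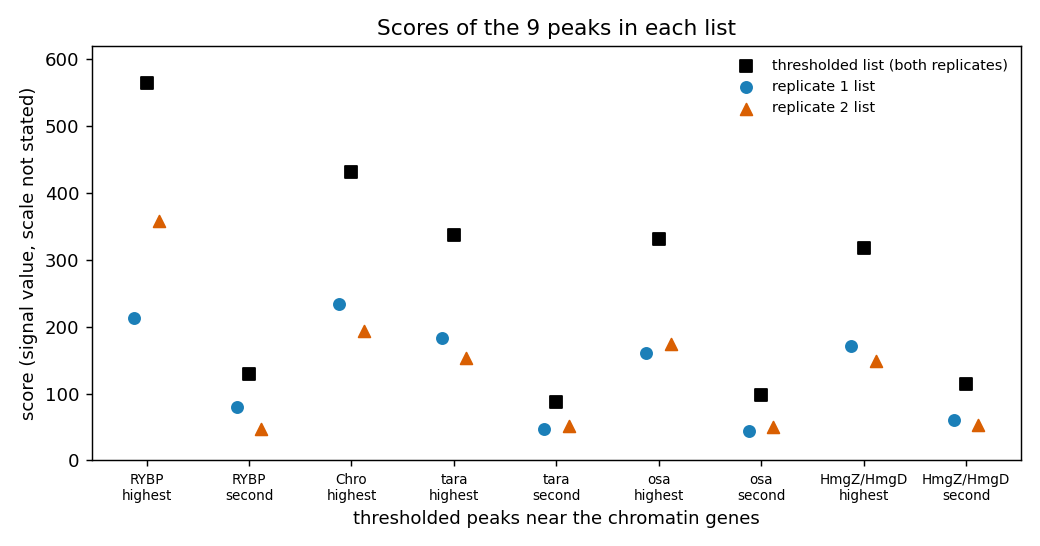
Scores of the 9 thresholded peaks in the thresholded list (squares) and of the matched region in replicate 1 (circles) and replicate 2 (triangles), 1 value per list and no error bars. The replicates differ most in score at the highest RYBP peak, at 212.8 and 357.6, while on the log2 scale they differ about as much at the weaker one, at -0.76 against 0.75.

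The order of the highest peaks was only partly the same in both libraries. In replicate 1 it ran Chro, RYBP, tara, HmgZ and HmgD, osa, and in replicate 2 it ran RYBP, Chro, osa, tara, HmgZ and HmgD. Chro and RYBP stood above the other peaks in both. The neighbours RYBP and Chro, tara and osa, and osa and the HmgZ and HmgD peak changed places between replicates, so their order in the thresholded list does not exceed the spread between libraries. Within each replicate the Chro score was above those of tara, osa and the HmgZ and HmgD peak. It was 233.9 against 161.0 to 182.6 in replicate 1, and 193.2 against 148.9 to 173.9 in replicate 2. By their ranks in both replicates the peaks most like that of tara were those of HmgZ, at a distance of 0.0898 in log10 ranks, and CG7601, at 0.102. Those most like osa were nearest to CG13323 and Lk6, those most like Chro nearest to CenG1A and CG8320, and those most like the HmgZ and HmgD peak nearest to tara and CG31668. The RYBP peak had no near match, its closest being Chro at 0.633 and GstE13 at 0.739.

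**Figure D3:**
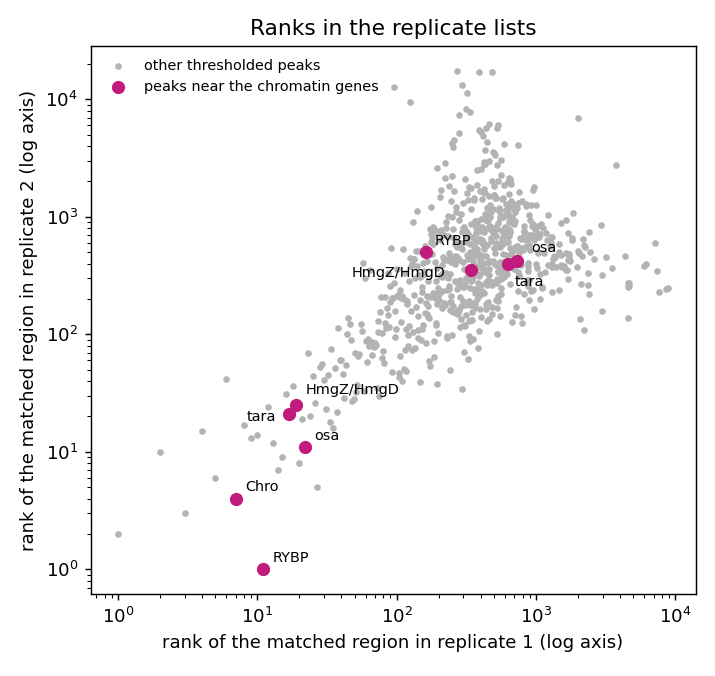
Rank of the region matched to each thresholded peak in replicate 1 and in replicate 2, both on log axes, for the peaks near the 6 genes (large points) and the other thresholded peaks (small points). The highest peaks sit at the lower left, within rank 22 of replicate 1 and rank 25 of replicate 2, and the weaker ones lie among the bulk of the peaks.

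Each highest peak of RYBP, tara, osa, HmgZ and HmgD had another thresholded summit within 2 kb, and that of Chro did not. The same held for 8.98% of all thresholded peaks and for 5 of the 21 highest, the fifth being that of cbt with another summit at 963 bp. The distance of 2 kb was chosen after the values were seen. All 5 highest peaks and the weaker HmgZ and HmgD peak had a width other than the common 380 bp, as did 9.77% of thresholded regions and every one of the 21 highest, so width went with the score that chose the genes. The weaker peaks of RYBP, tara and osa had the common width. No other copy of any of the 9 regions was found in the arms, at 80% identity over 100 bp or more, and for 0.651% of thresholded regions there was one.

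Base composition varied among them. Within 150 bp of the summit the GC content was 53.2% at the highest RYBP peak and 55.5% at the weaker one, above the median of 39.5% over thresholded peaks and above the 50.2% that 95% of them stay under. At osa it was 35.9% and 28.9%, at tara 43.9% and 38.2%, at HmgZ and HmgD 46.5% and 41.2% and at Chro 42.9%. Repeat-masked bases made up none of the window at the highest RYBP peak and at Chro, 0.66% at tara and 21.9% at the weaker osa peak, against a median of 16.6%.

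Motif letters were searched on both strands in the same windows. The NBRE, AAAGGTCA, was at none of the 9 summits, at 0.391% of thresholded and 0.970% of pooled summits, and the core of nuclear receptor sites, AGGTCA, was likewise at none, at 3.13% and 7.45%. GAGAG, bound by the GAGA factor, was at 4 of the 9, namely the highest peaks of tara and osa and the weaker ones of RYBP and of HmgZ and HmgD, against 42.3% of thresholded and 34.5% of pooled summits. The osa match lies outside the 210 bp printed above. GCCAT, the core letters bound by the Polycomb-recruiting protein Pho, was at 2 summits, the highest of tara and osa, against 40.1% and 52.2%. CGATA, bound by BEAF-32, was at Chro alone, against 32.8% and 28.8%. None of the 9 had the CA repeat CACACA, found at 29.7% of thresholded summits, the promoter element DRE (TATCGATA, 3.39%), the M1BP element GGTCACAC (2.60%), the AP-1 site TGACTCA (3.91%) or the E-box CACGTG (3.13%).

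The longer lists held further regions near the genes. Within the 10 kb windows the pooled list held 54 distinct regions, replicate 1 held 67 and replicate 2 held 71. These counts include the 9 thresholded peaks and the replicate regions matched to them. A pooled region was found near 95.7% of all protein-coding genes, and a region of replicate 1 or of replicate 2 near 97.3% in each case, so that the presence of such a region says little. The pooled list had 17 near tara, 12 near osa, 11 near HmgZ, 9 near HmgD and 7 near each of Chro and RYBP. Of these, 15 near tara, 10 near osa, 9 near HmgZ, 7 near HmgD, 6 near Chro and 5 near RYBP were below the threshold. All pooled regions together made 2.37 to 3.62 per 10 kb, against 1.40 over all arms. These densities count the thresholded peaks that chose the genes, and the value for the arms is not taken over windows around genes. No excess is read from them. The span of tara held 13 pooled regions and that of osa 10, including the 2 thresholded peaks of osa.

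The best region under the threshold was inside tara, 24984 bp from its 5′ end, with a score of 77.9 (rank 772), just under the lowest thresholded score of 78.0, while the weaker tara peak at 87.5 was the lowest of the 9 to pass. The region that overlapped it had a score of 29.8 in replicate 1 (rank 3259) and of 48.0 in replicate 2 (rank 475). The best such regions elsewhere scored 63.4 inside osa (rank 1215), 50.9 upstream of Chro (rank 2284), 50.4 upstream of RYBP (rank 2363) and 49.5 inside HmgZ and HmgD (rank 2513). The drop from the highest peak to these regions was from 431.0 to 50.9 at Chro, where no peak lay between, and from 337.2 through 87.5 to 77.9 at tara.

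Other genes of the same complexes were examined with 7 lists that name 97 genes in all, each found in the annotation. With the 6 genes left out, 29 of 91 (31.9%) had a thresholded summit within 10 kb, against 20.6% of all protein-coding genes, and 11 (12.1%) had one inside the span, against 3.31%. The 97 listed genes, with the 6 included, were longer, with a median span of 5221 bp against 2164.5 bp. The share of all genes with a summit was 19.0% for spans under 5 kb, 25.0% from 5 to 20 kb and 26.7% from 20 kb. The shares by span apply to summits in the span or within 10 kb, and none were counted for summits inside the span alone. The part of gene length in either difference was not tested. The lists were chosen with earlier results of these data known, so the shares of listed genes are given as description only. For 12 of the 29 the nearest TSS was their own, so most of these peaks stood nearer to the TSS of another gene, some of them inside the listed gene.

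**Figure D4:**
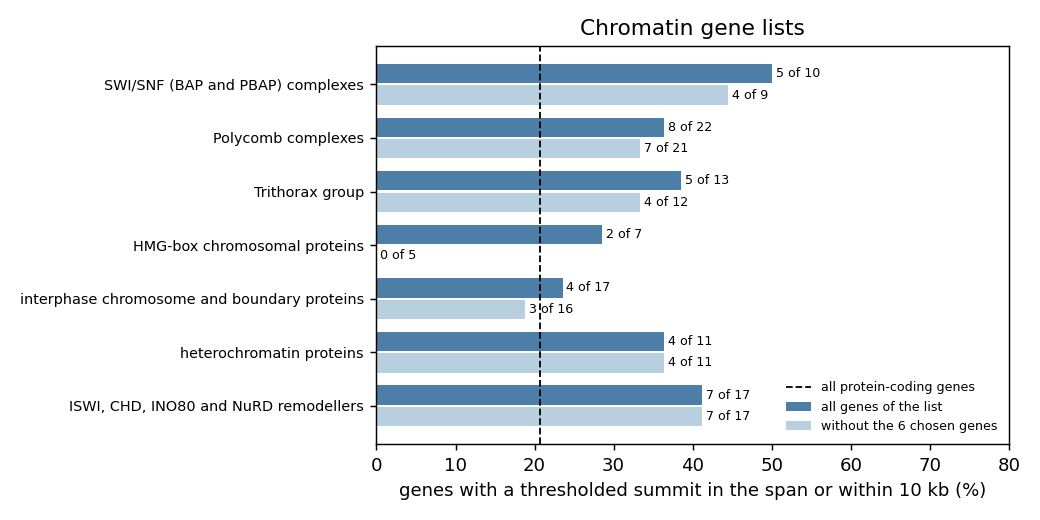
Share of the genes of each chromatin list with a thresholded summit in the span or within 10 kb, for the whole list (dark bars) and without the 6 genes chosen by score (light bars), with the counts beside the bars. The dashed line marks the 20.6% of all protein-coding genes, and the HMG-box list has no other gene with a peak.

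Among SWI/SNF subunits, the partners of osa, 4 of 9 other genes had a peak (44.4%, against 20.6% of all protein-coding genes). They were mor, a scaffold subunit (score 104, rank 403), polybromo, the signature subunit of the PBAP form (91.1), Bap55 (90.8) and brm, the ATPase (79.9, rank 721). The brm summit was 95 bp before its TSS, while those of mor, polybromo and Bap55 were nearer to the starts of Hel89B, lili and CG18467. At brm the region ranked 424 in replicate 1 and 2799 in replicate 2. None of the 4 summits lay inside the gene, as both osa summits did.

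Among Polycomb genes, the list of RYBP, 7 of 21 other genes had a peak (33.3%, against 20.6% of all protein-coding genes). The highest was beside phol, a DNA-binding relative of Pho (272, rank 33), followed by Caf1-55, a histone-binding subunit (262, rank 36), and ph-p, a PRC1 subunit with its summit inside the gene 497 bp from its TSS (248, rank 44). Those of phol and Caf1-55 were nearer to the starts of CG3552 and Art3, at 65 and 120 bp. Psc and Pc, further PRC1 subunits, had scores of 144 and 141, jing 97.2 and the demethylase gene Kdm2 93.1. The Pc summit was 70 bp from the start of CG11309.

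Of the trithorax group, the list of tara, 4 of 12 other genes had a peak (33.3%, against 20.6% of all protein-coding genes). The summit beside ash1, a histone methyltransferase gene, was the highest of all 768 (629), 162 bp past the 3′ end of ash1 and 87 bp from the start of CG14100. Trl, the GAGA factor gene, had its highest summit inside the gene (164, rank 123), as did kis, a CHD-type remodeller (92.8), and Utx, a histone demethylase (81.3).

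Of interphase chromosome and boundary proteins, the list of Chro, 3 of 16 other genes had a peak. This share, 18.8%, was below the 20.6% of all protein-coding genes. JIL-1, a histone H3 kinase that binds Chro protein, had its highest summit inside the gene (216, rank 59), and mod(mdg4) and ZIPIC had scores of 99.9 and 119, with the ZIPIC summit 150 bp from the start of CG7943 and 9450 bp from its own gene. The mod(mdg4) summit was 95 bp from the start of pre-mod(mdg4)-E. None of the 5 other HMG-box genes had one, and their best pooled scores included 53.1 for Dsp1 and 44.5 for Ssrp. Among heterochromatin genes 4 of 11 (36.4%) had one, led by the gene of heterochromatin protein HP1a (297, rank 28). The HP1a summit was nearer to the start of CG8360. HP6 (127), HP5 (106) and HP1c (82.1) followed. The HP5 and HP1c summits were nearer to the starts of Evi5 and rumi. Among the ISWI, CHD, INO80 and NuRD remodellers 7 of 17 (41.2%) had one. They were Ino80 (138, its summit 117 bp before the TSS), Mi-2 (125), pont (118), MTA1-like (102), simj (97.5), HDAC1 (93.3) and Chd1 (83.5). The summits of pont, MTA1-like and Chd1 were 103, 129 and 94 bp from the starts of Nuak, MED27 and CG9641. That of Mi-2 lay inside Mi-2, 6938 bp from its own TSS and 6133 bp from that of Su(Tpl). The HDAC1 summit was nearer to the start of Src64B than to its own. The median of the best pooled score was 55.0 over the 89 other listed genes that had a pooled region and 48.4 over the 13363 protein-coding genes that had one.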

How the data were processed

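The submitters' labels describe the libraries as biological replicates 1 and 2 of 1 group, so no test between groups was made. Text files that accompany the libraries state that the authors made a list for each replicate from its own alignments and a control file, a pooled list from the alignments of both with a control file, and the thresholded list from these 3. Which aligner, caller and IDR cut-off they used is not given in the sources used here. Each deposited list gives a signal value per region, called the score here, and a −log10 q value, of which 404 thresholded peaks share the highest, 2.91. Both are the authors' own values and are used to describe and rank regions within a list. Scores of matched replicate regions were also combined as means, log2 ratios and sums, without scaling between the lists. The control was part of the authors' processing and its lists were not analysed here. Lists on dm3 were not used.

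From these lists, summits were placed on the dm6 arms against gene models of Ensembl release 115, and a summit was counted for a gene when it lay in the span or within 10 kb. A replicate region was matched to a peak by an overlap of 1 bp or more, taking the nearest summit. Most thresholded regions (693 of 768) are 380 bp wide, which limits how finely a summit places binding. Sequence came from RefSeq release 6, and copies were sought with blastn 2.17.0 at an e-value of 1e-05. Python 3.11.15, numpy 2.4.6, pandas 2.3.3 and matplotlib 3.10.9 were used, and the scripts were tested on simulated data. Depth is unknown, so no counting interval is given.

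The members and the gene and motif lists were chosen with earlier results of these data known. Named genes are the 6 members, genes at or next to their summits, every gene of the 7 lists with a thresholded peak plus at most 4 others per list, and the 2 peaks most like each highest peak by Euclidean distance of log10 ranks in both replicates. The gene cbt falls outside this rule and was named after its values were seen, as were starts lying nearer to a summit of a listed gene. Outdated symbols of 2 genes were matched through RefSeq synonyms.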

Additional observations from a re-analysis of the deposited data

How the results depend on the processing

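Each of the 6 genes had a thresholded peak under every setting except 2: with the summit required inside the span 4 genes had one, and within 2 kb 5 had. The number of peaks near them fell from 9 to 5 inside the span, and was 6 within 2 kb, 8 within 5 kb, 7 with the thresholded peaks above the median score and 10 with the 768 highest regions of either replicate alone. At RYBP the highest score was 129 within 5 kb, and at tara 87.5 within 2 kb, since their highest peaks lie farther off. The genes of the chromatin lists with a peak numbered 35, with 15 inside the span, 26 within 2 kb, 30 within 5 kb and 35 or 36 without replicate 1 or replicate 2. Pooled regions near the 6 genes numbered 54, and 35 inside the spans, a setting chosen after seeing the data. Pairs of a motif and a summit numbered 7, with 4 at 100 bp and 13 at 250 bp to either side. A smaller window can only lower these counts, by construction. With 2 replicates, unknown depth and a score of unstated scale, differences between peaks were not tested. No paired analysis was possible because there is 1 group.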
